A study of Mus musculus with 10 samples.

Results

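The cytosolic ribosomal protein genes were taken from the gene symbols alone: every symbol made of Rpl or Rps, a number and at most a letter and a further digit, together with Rplp0, Rplp1, Rplp2 and Rpsa. The rule found 84 of the 24391 genes in the count tables, 51 of the large subunit (Rpl) and 33 of the small subunit (Rps). It used no measured value, and it leaves out ribosomal proteins with other names, such as Fau and Gnb2l1. It takes in paralogs with a letter l in their names, such as Rpl22l1 and Rps27l.

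RNA was sequenced from 5 cell lines derived from mouse small cell lung cancer (SCLC), G4314, G9351, G9488, G9529 and G9577. All 5 carried altered Rb and p53 genes, a MYCN transgene that a tetracycline-responsive element drives (TRE-MYCN) and the doxycycline-dependent activator rtTA behind a stop cassette that Cre removes (LSL-RTTA). Each line gave 1 library on doxycycline, here MYCN on, and 1 library after 4 days without the drug, here MYCN off. No culture received doxycycline without the transgene, so any effect of the drug is part of each difference, and each line is 1 culture per condition.

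A ribosome is built from ribosomal RNA and a set of proteins, most needed in equal numbers, so their genes are usually expressed together. Most of their mRNAs begin with a 5' terminal oligopyrimidine (TOP) tract, through which the mTOR pathway and LARP1 control their translation. MYC family proteins, MYCN among them, are known as activators of ribosome production. Ribosomal protein genes also have many processed pseudogenes, which makes short reads hard to place.

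The libraries held 9586465 to 11960074 counts, and 12835 genes passed a filter on low counts. Mycn itself rose from 118 ± 66.5 to 737 ± 212 CPM (mean ± SD, n = 5 lines), a fitted log2 change of 2.86 (SE 0.38, adjusted p 0.00421 by edgeR's quasi-likelihood test, Benjamini-Hochberg). The labels do not give the species of the MYCN transgene, so these counts of the mouse gene may not measure it in full. CPM are a gene's counts relative to the library's total after TMM scaling. One line stood apart from its label. In G9577 the summed level of 7 neuroendocrine markers was 223 CPM on doxycycline and 169 CPM off it, against at least 3049 CPM in each of the other 8 libraries. The summed level of 8 fibroblast and mesenchymal markers in G9577 was 3353 CPM on and 16801 CPM off, against 1.81 to 21.7 CPM elsewhere. The neuroendocrine markers also moved with MYCN: their summed level was 3576, 3049, 3460 and 3929 CPM on and 6223, 4788, 5535 and 5685 CPM off in G4314, G9351, G9488 and G9529. Of the 7, 5 fell and 0 rose by edgeR, with a median log2 change of -0.76, among them Chga and Syp, which belong to secretory granules and vesicles. Without G4314, G9351 or G9488, 3 of the 7 fell in each fit. Of all genes tested, 916, 916 and 1280 fell in these fits, against 2004 with all lines. The part of these marker genes in the results below was not tested. In bulk RNA, fewer cells of a type and less RNA per cell cannot be told apart.

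Ribosomal protein genes were higher with MYCN on, on both subunits and in every line. Of the 84 members, 79 passed the filter, and 72 of these rose while 0 fell by edgeR's quasi-likelihood test (Benjamini-Hochberg adjusted p under 0.05 over all genes tested). Over all 12835 genes, 15.3% rose and 15.6% fell. At an unadjusted p under 0.05 the edgeR test gave 76 members higher and 0 lower. At an adjusted p under 0.05, DESeq2 and limma-voom each gave 71 higher and 0 lower. The median log2 change was 1.18 over the 79 members and -0.08 over all genes tested. All 5 lines were higher with MYCN on for 74 of the 79 members, against 2683 of all 12835 genes tested. Of the members, 56 rose at least 2-fold, a count that was not made over all genes. In 45 members the lowest library with MYCN on was above the highest library with MYCN off, which held for 6.35% of all genes tested. The changes lay close together, with 57 members within 0.25 of their median on the log2 scale. With any 1 line left out, 55 of the 72 members stayed past the threshold in every fit and 17 lost the call in at least 1, among them Rps29, Rpl30 and Rps13 in all 5 such fits.

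The 3 markers of the group had mean levels of 394 (Rplp0), 66.4 (Rps2) and 5.65 (Rpl3) CPM per kb of exon over the 10 libraries, and all 3 rose. Rplp0, the core of the ribosomal P stalk that recruits translation factors, was at 668, 558, 841, 525 and 1117 CPM in G4314, G9351, G9488, G9529 and G9577 with MYCN on. With MYCN off it was at 237, 171, 411, 200.3 and 627 CPM in the same order. Each line was higher with MYCN on, but the groups overlapped because the off library of G9577 lay above the on libraries of G9351 and G9529. The fitted log2 change of Rplp0 was 1.29 (SE 0.16, 2.45-fold, adjusted p 0.00368 by edgeR's quasi-likelihood test, Benjamini-Hochberg). Rpl3, a large subunit protein near the peptidyl transferase centre, was at 11.2, 6.91, 10.5, 9.60 and 20.4 CPM with MYCN on and at 2.26, 2.53, 3.81, 3.08 and 6.68 CPM with MYCN off. No library with MYCN off reached the lowest with MYCN on, and Rpl3 had the largest change of all members, 1.68 (SE 0.23, 3.22-fold, adjusted p 0.00431 by the same edgeR test). Rps2, the third marker, is described with the genes that differ between lines.

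**Figure D1:**
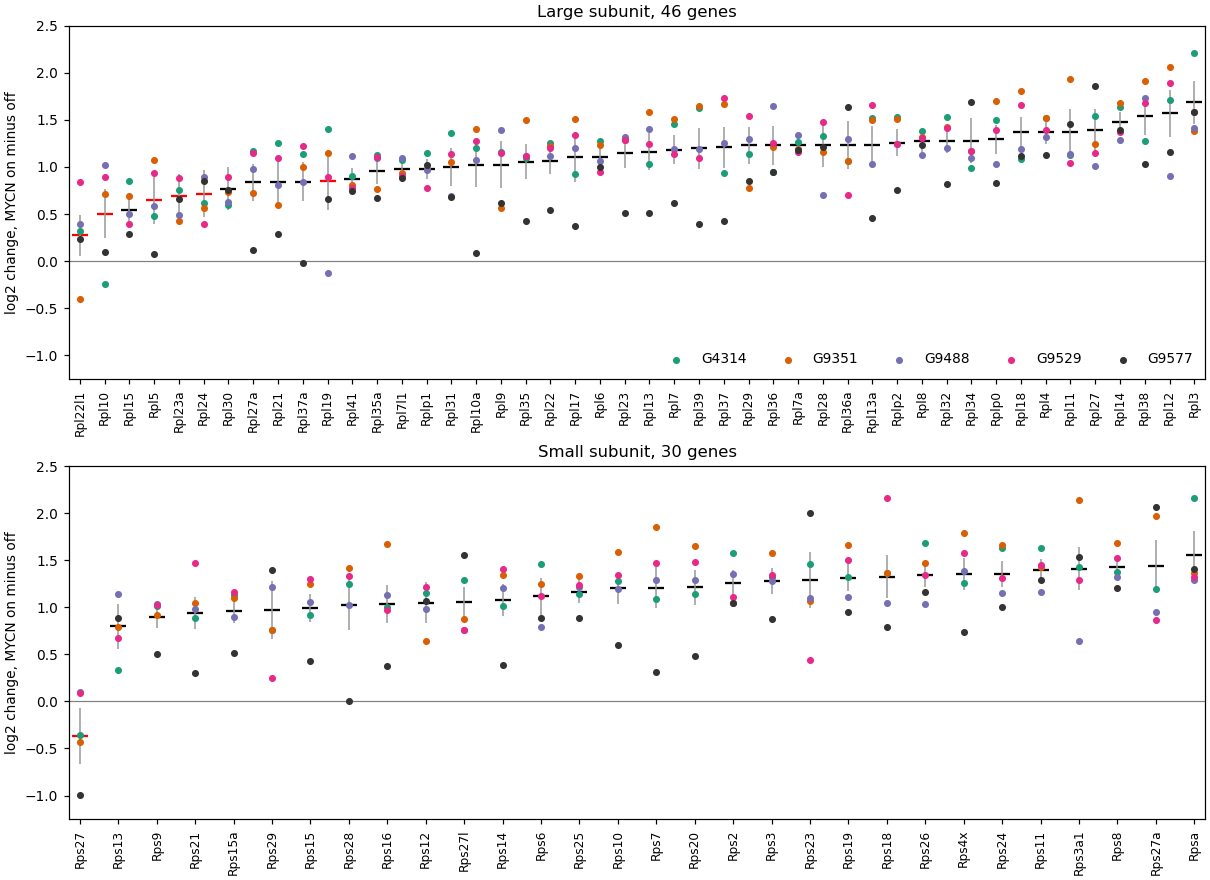
Of the tested ribosomal protein genes, 76 are shown on the x axis, in order of its fitted change, with the log2 change of MYCN on minus off on the y axis, for the large subunit (top, 46 genes) and the small subunit (bottom, 30 genes). Coloured points are the 5 lines, horizontal bars the fitted change (black where it passed the test, red where it did not) and grey lines its SE. Nearly all points lie above 0, and the black points of G9577 are often the lowest.

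Most genes of both subunits rose. Of 47 large subunit genes tested, 41 rose and 0 fell, with a median log2 change of 1.16. Of 32 small subunit genes tested, 31 rose and 0 fell, with a median of 1.21. Line by line, the medians of the large and the small subunit were 1.17 and 1.25 in G4314, 1.22 and 1.36 in G9351, 1.11 and 1.12 in G9488, 1.16 and 1.30 in G9529, and 0.75 and 0.88 in G9577. The small subunit had the higher median in all 5 lines. No test of this difference was made.

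Summed over all 84 members, the counts were 1.14%, 1.33%, 1.33%, 1.31% and 1.46% of the library in G4314, G9351, G9488, G9529 and G9577 with MYCN on. With MYCN off they were 0.461%, 0.510%, 0.623%, 0.535% and 0.739% in the same order. The groups did not overlap: the mean was 1.31 ± 0.115% with MYCN on and 0.574 ± 0.109% with MYCN off (SD, n = 5 lines). The share rose 2.46, 2.60, 2.13, 2.45 and 1.98 times in the same order of lines. G9577 had the highest share in both conditions and the smallest ratio. Counts of large subunit genes stood to those of small subunit genes as 1.24, 1.15, 1.30, 1.27 and 1.58 with MYCN on and as 1.17, 1.21, 1.30, 1.28 and 1.46 with MYCN off. This ratio was highest in G9577 in both conditions, and between conditions it moved up in 2 lines and down in 3.

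**Figure D2:**
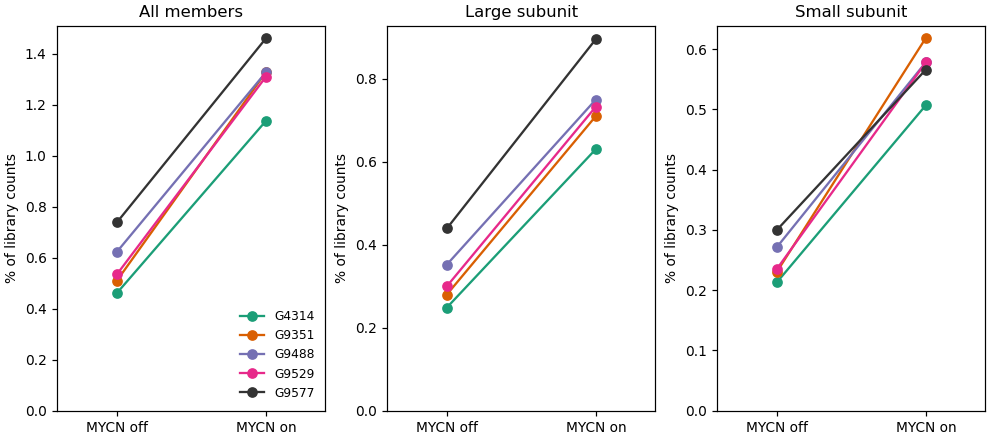
The share of each library's counts that fell on ribosomal protein genes (y axis, in percent, starting at 0) is shown with MYCN off and on (x axis) for all 84 members, the large subunit and the small subunit, with 1 line joining the 2 libraries of each cell line. Every cell line rises, from 0.461% to 0.739% off to 1.14% to 1.46% on for all members.

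The sum rested on few genes. Rpl4 held 11.5% of all member counts, Rpl8 8.87% and Rps3 8.34%, and the 7 largest genes held 50.1%. Per kilobase of exon, Rpl8 had the highest mean level over the 10 libraries (988 CPM per kb), and Rpl4 (775), Rps15 (645) and Rpl13a (533) were among the next, while Rpl5 had the lowest level of the 79 tested members (2.31). Most of these proteins, though not all members, are needed in equal numbers in a ribosome. The spread of counted levels was set beside how much of each mRNA is unique. For each member, 1 mRNA in GENCODE M21 (mouse build GRCm38), its lowest-numbered coding transcript, was cut into all windows of 50 bases. A window counted as shared when it occurred in a transcript of another gene, pseudogenes included. The transcript used can differ from the exons that were counted. For Rps20 it had 3706 bases against 502 counted exon bases, and for Rpl22 474 against 2497. The percent shared and the classes below depend on this choice.

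Among tested members, counted levels were lower where more of the mRNA was shared. The 9 tested members with under 25% of windows shared had a median level of 206 CPM per kb, the 48 members with 25 to 75% had 76.0 CPM per kb, and the 22 members with 75% or more had 7.46 CPM per kb. The first of these medians is the level of Rps20, whose class rests on the longer transcript named above. The filter on low counts bears on this order, since it left out 4 members of the least shared class, Rpl39l, Rpl3l, Rpl10l and Rps4l, at 0.0969 CPM per kb or less. With them the median of that class was 125 CPM per kb over 13 members. Spearman's rho between level per kb and percent shared was -0.58 over the 79 members, given as a description since all members come from the same 10 libraries. The change with MYCN followed the sharing less: the rho was -0.17, and the median log2 changes of the 3 classes were 1.21, 1.22 and 1.04. All 9 members of the first class rose, 47 of 48 in the second and 16 of 22 in the third. The SE of the change grew as the level fell (rho -0.79). Reads that map to more than 1 place were not counted, so a low level here is a level of countable reads and not of mRNA.

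**Figure D3:**
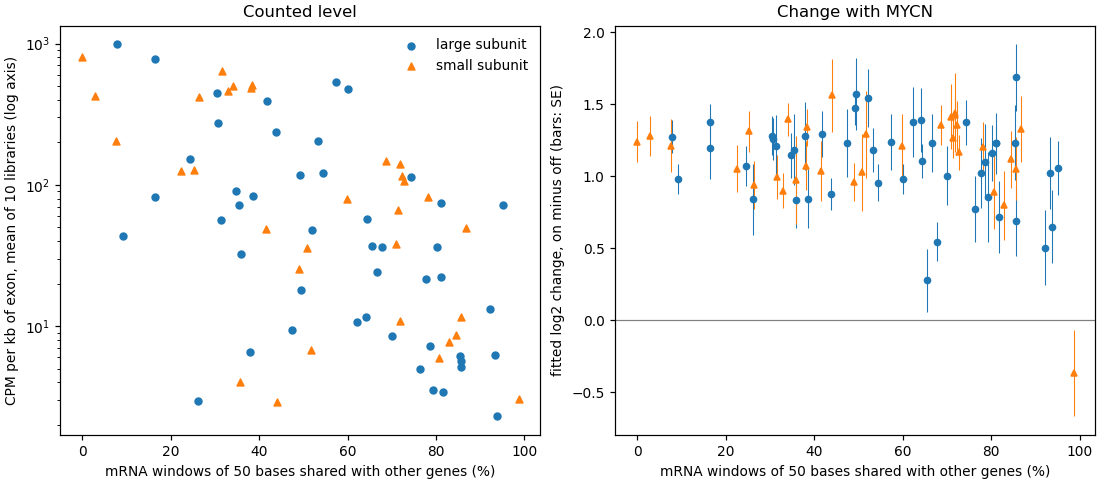
Each point is a tested member, with the percent of its 50-base mRNA windows that other genes share on the x axis. The left panel shows its mean CPM per kb of exon on a log axis, which falls from a median of 206 to 7.46 between the least and the most shared class. The right panel shows its fitted log2 change with its SE as a bar, which is near 1.2 across most of the range.

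Members with few shared windows were among the most abundant. Rps3, a protein of the mRNA entry channel of the small subunit with 2.96% of windows shared, was at 1022, 1295, 1119, 1085 and 1138 CPM with MYCN on and at 409.9, 434, 462, 427 and 619 CPM with MYCN off. Rpl8, a core protein of the large subunit with 7.86% of windows shared, was at 929, 982, 1039, 1044 and 2016 CPM on and at 355, 394, 474, 423 and 859.8 CPM off. Rpl4, whose loop reaches into the exit tunnel of the nascent protein, was at 1256, 1454, 1667, 1505 and 2023 CPM on and at 438, 507, 669, 575 and 927 CPM off. In each of the 3 genes all on libraries lay above all off libraries, and G9577 was highest in both conditions for Rpl8 and Rpl4. The fitted changes were 1.28 (SE 0.14) for Rps3, 1.27 (SE 0.11) for Rpl8 and 1.37 (SE 0.13) for Rpl4. The adjusted p values were 0.00303 for Rps3 and 0.00265 for both Rpl8 and Rpl4 (edgeR's quasi-likelihood test, Benjamini-Hochberg).

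Ordered by role in the ribosome, most groups of members rose. All 3 P stalk genes rose (Rplp0, Rplp1 and Rplp2, 0.98 to 1.29), as did all 5 proteins around the mRNA entry and the decoding site (Rps2, Rps3, Rps9, Rps15 and Rps23, 0.90 to 1.29) and all 4 listed at the mRNA exit (Rps14, Rps26, Rps28 and Rpsa, 1.03 to 1.56). Of 6 proteins of the peptidyl transferase region and the tunnel, 5 rose and Rpl10 did not pass the test. At the rim of the tunnel exit 4 of 6 tested proteins rose, and Rpl19 and Rpl23a did not pass the test. Of 3 proteins listed at bridges between the subunits, Rpl41 rose, and Rpl19 and Rpl24 did not pass the test. Rps18, which also lies at a bridge but was not on that list, rose by 1.33 (SE 0.23). Among the called members of these groups, Rps23, Rps28 and Rpl17 lost the call in 3, 4 and 4 of the 5 fits that left out a line, for example without G4314 with adjusted p of 0.0743, 0.0890 and 0.0620. Rpl31, at the rim of the tunnel exit, lost it without G4314 (adjusted p 0.0511) or G9351 (0.0532). Rpsa, which is also known as a laminin receptor, was counted at 4.70, 4.64, 12.7, 8.84 and 8.57 CPM on and 0.906, 1.69, 5.09, 3.43 and 3.12 CPM off. Its change was 1.56 (SE 0.25, adjusted p 0.00671), although the off library of G9488 lay above the on libraries of G4314 and G9351. Rps6, the substrate of the S6 kinases, changed by 1.12 (SE 0.20, adjusted p 0.00848), and its lowest on library, 11.2 CPM in G9351, was above its highest off library, 10.9 CPM in G9488. Rps27a, which is made as a fusion with ubiquitin, changed by 1.44 (SE 0.27, adjusted p 0.0102), with the largest line values in G9577 (2.07) and G9351 (1.97). All adjusted p values in this paragraph are from edgeR's quasi-likelihood test, Benjamini-Hochberg adjusted.

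The 2 proteins that join 5S ribosomal RNA in a small particle, and that can bind MDM2 when ribosome assembly fails, did not both pass the test. Rpl11 was at 8.72, 7.70, 7.99, 11.1 and 9.78 CPM on and at 3.89, 1.87, 3.52, 5.28 and 3.45 CPM off, with no overlap between the groups. Its change was 1.38 (SE 0.24, adjusted p 0.00829, edgeR's quasi-likelihood test, Benjamini-Hochberg). Rpl5 was at 5.49, 4.93, 6.13, 4.56 and 6.71 CPM on and at 3.89, 2.25, 4.01, 2.29 and 6.35 CPM off. It was higher in every line, but its off library of G9577 was above 4 of the 5 on libraries, and the change of 0.65 (SE 0.25) gave an adjusted p of 0.0881 by the same edgeR test. Rpl5 shares 93.8% of its windows with other genes and 964 of its 2019 exon bases with Fam69a. Leaving out G9577 brought the adjusted p of Rpl5 to 0.0456 by edgeR. Of 9 listed members known as genes of Diamond-Blackfan anaemia, an inherited failure of red cell production, 8 rose, Rpl5 being the exception, though Rpl15 lost the call without G4314 or G9351 (edgeR adjusted p 0.0809 and 0.0930). Rps19, the member most often mutated in that disease, changed by 1.31 (SE 0.14, adjusted p 0.00308, edgeR's quasi-likelihood test, Benjamini-Hochberg).

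The largest changes among called members were those of Rpl3, Rpl12 (1.57), Rpsa (1.56), Rpl38 (1.54), Rpl14 (1.47) and Rps27a (1.44). Rpl12, a protein of the stalk base, was at 14.1, 12.3, 15.5, 18.8 and 23.6 CPM on and at 4.17, 2.81, 8.21, 4.93 and 10.5 CPM off, with no overlap. Rpl38, known for a part in translating Hox mRNAs, was at 21.6, 31.5, 25.6, 25.5 and 26.3 CPM on and at 8.79, 8.25, 7.53, 7.84 and 12.8 CPM off, again with no overlap. The smallest changes among called members were those of Rpl15 (0.55), Rpl30 (0.77), Rps13 (0.80), Rpl27a (0.84), Rpl21 (0.84) and Rpl37a (0.84). Rpl15 was at 86.0, 142, 44.6, 68.6 and 57.1 CPM on and at 47.6, 87.8, 31.6, 52.1 and 46.8 CPM off. It was higher in all 5 lines, with line values from 0.29 to 0.85, and differences between lines were larger than the difference between conditions. The calls of all 6 depended on single lines: Rpl15 had an edgeR adjusted p of 0.0809 without G4314 and 0.0930 without G9351, Rpl27a and Rpl37a lost the call without G4314, G9351 or G9529, Rpl21 without any line but G9577, and Rpl30 and Rps13 without any 1 of the 5.

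The 7 tested members that did not pass the threshold were mostly rarely counted and widely shared with other genes. As a measure of depth, not scaled by length, their mean CPM ran from 1.75 to 17.6 with a median of 2.88, against a median of 60.8 for the 72 that rose, and 65.6% to 98.7% of their windows were shared. Rpl19 changed by 0.86 (SE 0.31, adjusted p 0.0735), Rpl24, a protein at a bridge between the subunits, by 0.72 (SE 0.25, adjusted p 0.0623) and Rpl23a by 0.69 (SE 0.24, adjusted p 0.0645) by edgeR's quasi-likelihood test, Benjamini-Hochberg. Rpl10, which joins the large subunit late, was at 12.3, 12.1, 11.3, 14.4 and 10.2 CPM on and at 14.6, 7.31, 5.48, 7.66 and 9.46 CPM off. It was lower with MYCN on in G4314 and higher in the other 4 lines, and its change of 0.50 (SE 0.26) gave an adjusted p of 0.168 by that test. Without G9488, the line in which Rpl19 was lower with MYCN on, the adjusted p of Rpl19 was 0.0489. The remaining 2, Rpl22l1 and Rps27, are described with the paralogs.

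The other 5 members did not pass the filter on low counts. Rpl26 had 0 counts in all 10 libraries, and 520 of its 543 exon bases are also annotated as Gm15772, so that reads there belong to both genes and were not counted. Its level is therefore not known from these tables. Rpl39l, a paralog of Rpl39 known from testis, had 0 counts in all 10 libraries, which allows up to 3 counts, or 0.313 CPM in the smallest library. Rpl10l, known from the male germ line, had at most 1 count, and Rpl3l, a paralog of Rpl3 known from heart and skeletal muscle, and Rps4l had at most 4. Intervals and limits of this kind cover counting error only.

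Paralogs that passed the filter did not all follow their parent genes. Rpl22, a large subunit protein at the rim of the exit tunnel, was at 458, 489, 447, 724 and 471 CPM on and at 192, 210.0, 206, 316 and 322 CPM off, and it changed by 1.07 (SE 0.14, adjusted p 0.00419 by edgeR's quasi-likelihood test, Benjamini-Hochberg). Its paralog Rpl22l1, which can take its place in the ribosome, was at 9.21, 12.6, 19.0, 8.84 and 45.0 CPM on and at 7.34, 16.8, 14.4, 4.84 and 38.3 CPM off, a change of 0.28 (SE 0.22, adjusted p 0.351 in that test). Rpl22l1 was lower with MYCN on in G9351 and higher in the other 4 lines, and G9577 had the most of it in both conditions. Of the mRNA windows of Rpl22l1, 65.6% are shared with other genes. Per kb of exon, Rpl22l1 stood to Rpl22 as 0.108, 0.137, 0.224, 0.0652 and 0.502 with MYCN on and as 0.205, 0.423, 0.369, 0.0832 and 0.625 with MYCN off. The ratio was lower with MYCN on in 5 of 5 lines, by 0.79 ± 0.53 on the log2 scale (SD, n = 5). The two-sided exact sign-flip permutation test over the 5 lines gave p = 0.063, the smallest that 5 lines allow, and 0.0938 after Benjamini-Hochberg adjustment over the 3 pairs tested.

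Rpl7l1, a nucleolar relative of Rpl7 that acts in ribosome assembly, moved with Rpl7. Rpl7l1 was at 114, 124, 128, 122 and 254 CPM on and at 54.2, 64.9, 60.1, 65.1 and 137 CPM off, a change of 0.98 (SE 0.10), and Rpl7 changed by 1.18 (SE 0.15). The log2 ratio of Rpl7l1 to Rpl7 changed by -0.20 ± 0.32 (SD, n = 5), lower in 4 of 5 lines, with an exact permutation p of 0.25 before and after adjustment. A difference of this size between the paralogs was within the spread between lines.

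Rps27 and its paralog Rps27l, which is known as a p53 target, could be compared only in part. Rps27l was at 71.5, 58.5, 69.6, 63.7 and 131 CPM on and at 29.1, 31.9, 41.0, 37.5 and 44.5 CPM off. It rose without overlap by 1.05 (SE 0.17, adjusted p 0.00613 by edgeR's quasi-likelihood test, Benjamini-Hochberg). Rps27 had 14, 15, 16, 12 and 20 counts on and 20, 22, 14, 12 and 35 counts off. It was the only tested member with a fitted change below 0, -0.37 (SE 0.30, adjusted p 0.363 in that test), and this did not pass the threshold. Of its 575 exon bases, 345 are also annotated as Rps27rt, and 98.7% of its mRNA windows are shared with other genes. The log2 ratio of Rps27l to Rps27 was higher with MYCN on in 5 of 5 lines, by 1.36 ± 0.79 (SD, n = 5), with an exact permutation p of 0.063 and 0.0938 after adjustment.

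**Figure D4:**
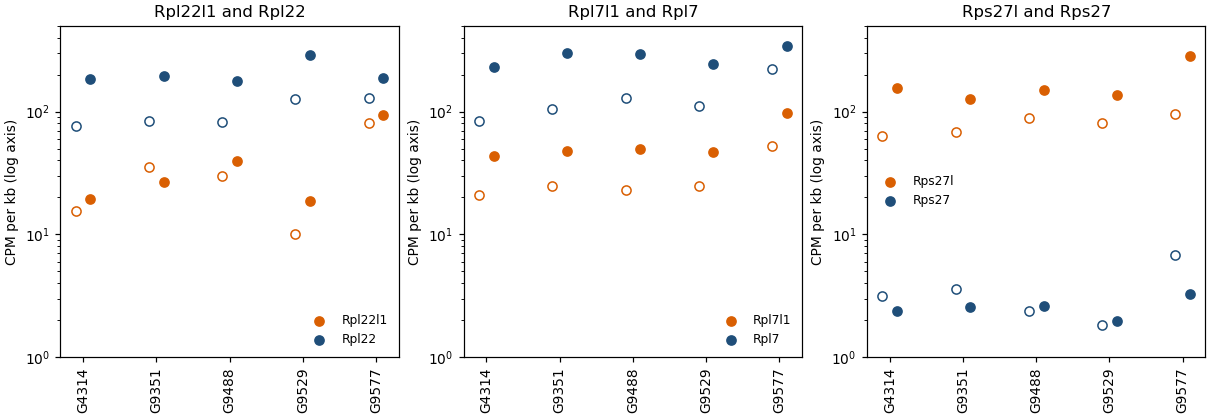
CPM per kb of exon (y axis, log scale, same range in all panels) is shown by cell line (x axis) for 3 paralogs (orange) and their parent genes (blue), with open circles for MYCN off and filled circles for MYCN on. Rpl22 rises in every line while Rpl22l1 falls in G9351 and rises in the other lines, Rpl7l1 and Rpl7 rise together, and Rps27 lies near the bottom of the scale.

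Some members differed far more between lines than between conditions. These were picked after their values were seen. Rps2, the third marker and a protein of the mRNA entry channel, was at 149, 5.23, 199, 7.22 and 115 CPM in G4314, G9351, G9488, G9529 and G9577 with MYCN on, and at 49.6, 2.44, 77.5, 3.26 and 55.4 CPM with MYCN off. G9351 and G9529 were low in both conditions, and the lines were 38.0-fold apart with MYCN on and 31.8-fold apart with MYCN off. Its change with MYCN was 1.04 to 1.58 in all 5 lines, with a fitted value of 1.26 (SE 0.14, adjusted p 0.00308, edgeR's quasi-likelihood test, Benjamini-Hochberg).

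Rps3a1, a small subunit protein near the mRNA exit, was lowest in G9351, as Rps2 was, but high in G9529, where Rps2 was low. It was at 87.9, 7.70, 9.30, 143 and 12.3 CPM on and at 32.6, 1.59, 5.87, 58.2 and 4.12 CPM off, so that G4314 and G9529 were high in both conditions. Rpl29, a protein of the large subunit's surface, had 183, 3, 248, 233 and 583 counts on and 89, 1, 95, 85 and 270 counts off, with G9351 near 0 in both conditions. Rps18, a small subunit protein at the bridge between the subunits, was at 54.5, 31.1, 54.0, 6.56 and 34.6 CPM on and at 21.0, 12.0, 26.0, 1.32 and 19.9 CPM off, with G9529 the lowest in both conditions. The lines were 18.5-fold apart for Rps3a1 and 8.31-fold apart for Rps18 with MYCN on, and 36.5-fold and 19.7-fold with MYCN off. For Rpl29 they were 183-fold apart on and 321-fold off, which rests on the 3 and 1 counts in G9351. G9351 was thus the lowest line for Rps2, Rps3a1 and Rpl29, and G9529 for Rps18. Each of the latter 3 genes was higher with MYCN on in all 5 lines, with fitted changes of 1.41 (SE 0.23) for Rps3a1, 1.23 (SE 0.20) for Rpl29 and 1.33 (SE 0.23) for Rps18.

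Apart from these 4 genes and Rpl22l1, the highest and the lowest line of a tested member were at most 3.21-fold apart with MYCN on and at most 5.61-fold apart with MYCN off. Between 66.6% and 86.7% of the windows of Rps2, Rps3a1, Rpl29 and Rps18 are shared with other genes. What sets the low lines was not tested. Without the 6 members whose lines were over 5-fold apart in either condition, 67 of 73 members rose and 0 fell.

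**Figure D5:**
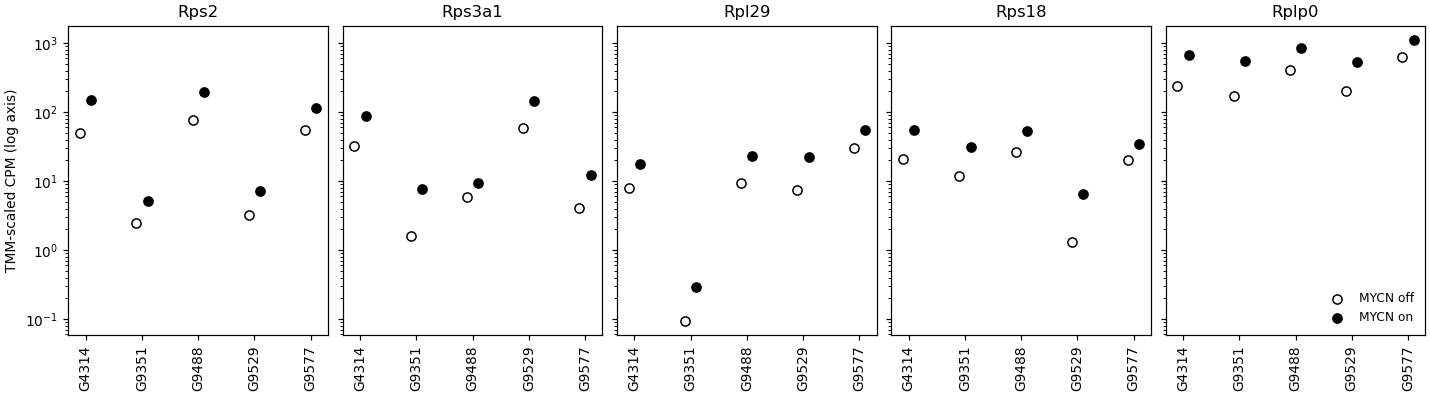
TMM-scaled CPM (y axis, log scale) is shown by cell line (x axis) for Rps2, Rps3a1, Rpl29 and Rps18 and, for comparison, Rplp0, with open circles for MYCN off and filled circles for MYCN on. The filled circle is above the open circle in every line, and the 2 circles of a line stay together while lines differ. With MYCN on, lines were 38.0-fold apart for Rps2 and 183-fold for Rpl29, the latter resting on 3 counts in G9351.

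The median change of the members was smallest in G9577. Its median change over the 79 members was 0.79, against 1.11 to 1.29 in the others, while its Mycn change of 3.50 was the second largest. The median change of all genes tested in G9577 was -0.23. In G9577 22 members changed by less than 0.5, against 3 to 6 in each other line, and 8 changed by more than 1.5, against 14, 28, 2 and 11 in G4314, G9351, G9488 and G9529. The SD of the change over the members was 0.519 in G9577 and 0.309 to 0.476 in the other lines, and over all genes tested it was 1.34 in G9577 and 0.755 to 0.975 in the others. Rpl37a, a small zinc-binding protein, was at 60.0 CPM on and 60.7 CPM off in G9577, while its 4 other lines changed by 0.84 to 1.23. The line also carries the mesenchymal and the low neuroendocrine marker levels given above, whose part in this was not tested. Without G9577, 70 of 79 members rose and 0 fell, with a median of 1.26.

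Between lines, the order of the members' changes was shared only in part. Spearman's rho of the log2 changes over the 79 members was 0.64 between G9351 and G9529, and 0.03 between G9529 and G9577. These are descriptions over genes of the same libraries and not tests. Mycn, as counted on the mouse gene, changed by 1.61, 4.16, 2.23, 2.85 and 3.50 in G4314, G9351, G9488, G9529 and G9577, and the members' medians were 1.20, 1.29, 1.11, 1.23 and 0.79. The lines with the largest and the second largest Mycn change, G9351 and G9577, had the largest and the smallest median. Without G9577, G9351 and G9529 had the 2 largest changes of Mycn and the 2 largest medians, in the same order, and G4314 and G9488 the reverse order. With 5 lines no correlation was computed.

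Promoter sequence was looked at because MYC family proteins bind the E-box CACGTG. RefSeq windows from 250 bases before to 50 bases after a transcript start (GRCm38.p6) matched 63 of the 84 members by symbol, with 75 windows. CACGTG, which reads the same on both strands, was in 8 of the 75 windows (10.7%), against 7.15% of all 32851 windows. It was found for 6 of the 63 genes, Rpl14, Rps19, Rpl34, Rpl13a, Rpl23 and Rpl19, of which 5 rose with a median change of 1.26 over the 6. Of the 53 tested members with a window and no CACGTG, 48 rose with a median of 1.12. CGGAAG, the core letters of ETS family sites such as those of GABP, was on either strand of 60.0% of the members' windows, against 16.9% of all windows. AAGATGG, letters of a YY1 site that can overlap CGGAAG, was in 16.0% against 6.34%, and TATAAA was in 9.33% against 13.6%. A match is a stretch of letters and not a measured binding site.

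Of these windows 5 are printed to show both kinds of promoter, 3 with an E-box and the largest changes among such members, and 2 without one that belong to strongly changed members. Each is the 250 bases before the annotated start, read 5' to 3' on the gene's strand, with CACGTG and both orientations of CGGAAG in capitals.
Rpl14, chr9:120571267-120571516, plus strand, log2 change 1.47: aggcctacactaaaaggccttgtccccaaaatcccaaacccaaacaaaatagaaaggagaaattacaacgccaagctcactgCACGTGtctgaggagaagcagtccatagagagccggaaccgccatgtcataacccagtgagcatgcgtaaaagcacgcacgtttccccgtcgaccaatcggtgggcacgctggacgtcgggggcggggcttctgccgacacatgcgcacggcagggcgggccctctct
Rps19, chr7:24884663-24884912, plus strand, log2 change 1.31: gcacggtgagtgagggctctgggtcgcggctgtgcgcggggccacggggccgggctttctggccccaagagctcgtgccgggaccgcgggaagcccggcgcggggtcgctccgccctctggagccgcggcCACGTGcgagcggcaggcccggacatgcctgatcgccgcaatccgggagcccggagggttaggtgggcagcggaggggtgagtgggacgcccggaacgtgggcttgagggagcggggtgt
Rpl34, chr3:130730399-130730648, minus strand, log2 change 1.28: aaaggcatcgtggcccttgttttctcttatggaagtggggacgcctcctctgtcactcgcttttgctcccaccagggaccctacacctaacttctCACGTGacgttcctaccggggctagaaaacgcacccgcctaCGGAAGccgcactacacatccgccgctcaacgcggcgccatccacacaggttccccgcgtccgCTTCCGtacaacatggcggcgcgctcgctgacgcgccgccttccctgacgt
Rpl12, chr2:32961462-32961711, plus strand, log2 change 1.57: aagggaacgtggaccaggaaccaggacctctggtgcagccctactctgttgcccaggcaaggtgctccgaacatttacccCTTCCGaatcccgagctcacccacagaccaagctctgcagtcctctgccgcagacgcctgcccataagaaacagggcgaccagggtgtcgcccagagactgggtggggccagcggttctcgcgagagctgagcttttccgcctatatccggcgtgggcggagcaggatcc
Rpsa, chr9:120127516-120127765, plus strand, log2 change 1.56: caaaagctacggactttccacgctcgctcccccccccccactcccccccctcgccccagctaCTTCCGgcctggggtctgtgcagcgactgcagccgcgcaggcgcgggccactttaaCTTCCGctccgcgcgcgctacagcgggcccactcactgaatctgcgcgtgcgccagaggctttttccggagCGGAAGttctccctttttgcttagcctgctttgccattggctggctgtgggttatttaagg

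The E-box of Rpl14 begins 168 bases before the start, that of Rps19 120 bases and that of Rpl34 155 bases before it. Rpl34 also holds 2 copies of the ETS letters and Rpsa holds 3, while Rpl14 and Rps19 hold none. The windows without an E-box were picked for the size of their members' changes, so these 5 cannot be used to compare changes with and without one. No chromatin or binding data were part of the comparison.

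Genes that make, carry or resemble ribosomal proteins moved in the same direction for the most part. The 3 ribosomal proteins looked for outside the name rule that were in the tables rose: Gnb2l1, the scaffold protein RACK1 on the small subunit, by 1.45 (SE 0.15), Rpl36al by 0.98 (SE 0.16), and Fau, a ubiquitin-like fusion, by 0.80 (SE 0.18). Of 14 chaperones and importers of ribosomal proteins, 11 rose and 0 fell by edgeR, with a median of 0.86 (12 rose and 0 fell by DESeq2, 11 and 0 by limma-voom, and 12 and 0 at an unadjusted p under 0.05). The median of their changes was 1.67 in G9577 and 0.81, 0.67, 0.59 and 0.73 in G4314, G9351, G9488 and G9529. Without G9577, 11 rose with a median of 0.72, while without G4314 7 of the 14 rose and without G9351 6. Of all genes tested, 852 rose without G4314 and 813 without G9351, against 1969 of 12835 with all lines. The importins Ipo5 (3.03-fold, log2 SE 0.27) and Ipo7 (2.503-fold, log2 SE 0.16), the Rpl3 chaperone Grwd1 (2.82-fold, log2 SE 0.22) and the small subunit assembly factor Ltv1 (2.38-fold, log2 SE 0.22) were among the 11 that rose with all lines. Tsr2, the Rps26 chaperone (0.60, SE 0.20), Aamp, the relative of a yeast Rpl10 chaperone (-0.21, SE 0.12), and Ipo9 (-0.23, SE 0.19) did not pass the test.

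Other mRNAs with a TOP tract also rose, by less than the ribosomal protein genes at the median. Of 15 such genes, 13 rose and 0 fell by edgeR, with a median of 0.78. DESeq2 and limma-voom gave the same counts, and at an unadjusted p under 0.05 all 15 were higher. In edgeR fits without G4314, G9351, G9488, G9529 or G9577, 10, 9, 11, 11 and 15 of the 15 rose. Of all genes tested, 852, 813, 1447, 1468 and 2244 rose in these fits, against 1969 with all lines. Nap1l1 is both among these genes and among the chaperones and importers above. Npm1, a nucleolar chaperone, rose by 1.93 (SE 0.18), the elongation factor subunits Eef1g by 1.48 (SE 0.12) and Eef1b2 by 1.43 (SE 0.15), and the poly(A)-binding protein gene Pabpc1 by 1.25 (SE 0.12). Eif3h (0.36, SE 0.13) and Tpt1 (0.42, SE 0.16) did not pass the test. Of 15 regulators of TOP mRNAs and genes with S6 kinase (Rps6k) symbols, 8 rose and 0 fell by edgeR. By DESeq2 2 fell and by limma-voom 0. At an unadjusted p under 0.05 by edgeR 2 were lower, Rps6ka4 and Rps6ka5. Over all genes tested, 15.3% rose by edgeR. Without G4314 or G9351, 2 of these 15 rose in each fit. The number of all genes that rose was also lower there, 852 and 813 against 1969 with all lines. Those that rose in the fit with all lines included Larp1 (1.01, SE 0.18), Larp4 (1.06, SE 0.21), Ssb (0.66, SE 0.15) and Rps6ka2 (0.74, SE 0.13).

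Of 14 genes for factors that act at ribosomal protein promoters, 3 rose and 2 fell, while 31.0% of all genes tested passed in either direction. Without G4314 or G9351, 2 rose and 1 fell in each fit. Those fits called 1768 and 1729 of all genes, against 3973 with all lines. Besides Mycn, the MYC partner Max rose by 0.78 (SE 0.11) and Tbpl1 by 0.39 (SE 0.12). Myc itself, at 3.11 ± 4.45 CPM on and 17.3 ± 21.8 CPM off (SD, n = 5), changed by -2.64 (SE 0.30), and Zbtb7a by -0.71 (SE 0.17). Gabpa (0.24, SE 0.15) and Yy1 (0.03, SE 0.13), whose sites were searched for above, did not pass the test. Of 5 genes on the path from ribosomal stress to p53, 0 passed the edgeR test, with values of -0.79 (SE 0.31) for Cdkn1a and -0.08 (SE 0.11) for Mdm2. At an adjusted p under 0.05, 1 was lower by DESeq2 and 0 by limma-voom, and 1 was lower by edgeR at an unadjusted p under 0.05. Without G9577, 1 of the 5 rose and 1 fell by edgeR. The altered p53 gene is part of the lines' genotype.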

How the data were processed

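Polyadenylated RNA from 10 libraries (5 lines, MYCN on and off) was sequenced from unstranded NEBNext Ultra libraries, per the labels' protocols. The tools named are bcl2fastq 1.8.4 and the aligner STAR 2.5.2a, with the mouse build mm9, per the submitters' processing notes. The deposited values are raw counts per gene from featureCounts 1.6.0 without strand and with no setting that would count multi-mapping reads or those lying on more than 1 gene, per the file headers, so such reads are missing and overlapping or antisense genes cannot be told apart.

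Genes were filtered with filterByExpr (minimum count 10), scaled with TMM factors and tested with edgeR 4.0.16 (R 4.3.3): a two-sided quasi-likelihood F test with the line as a block, Benjamini-Hochberg adjustment over 12835 genes and a threshold of 0.05. The SE of a log2 change is its size over the root of F. A line's own change is on minus off in log2 CPM (prior count 2). P-values rest on 5 lines with 1 culture each. The lines pair the libraries: deviations of the 2 libraries of a line correlated with r of 0.721 to 0.873, and with other lines by at most 0.273. The fit was also run on simulated counts with a single dispersion for all genes and the same change in every line. The measured changes differed between lines, so that run does not test the calls made here.

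Genes named are the 3 markers, the 6 largest and 6 smallest called changes, all tested members not called, the paralogs and their parents, the 5 highest levels per kb, members with a line of opposite sign, and up to 4 called genes of smallest p from each other list. Other genes printed, such as Rps3, Rps6, Rps19 and the members that differ between lines, were chosen for their role or after their values were seen. Some genes that the rule names are not reported here. The members and lists were chosen with earlier results of these data known. Alternatives were no block, DESeq2 1.42.0, limma-voom (limma 3.58.1), other scalings and filters, and each line left out.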

Additional observations from a re-analysis of the deposited data

Results flagged for a closer look

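In 8 of 76 tested members examined, the log2 change of 1 line lay far from those of the other 4 by Dixon's criterion, which chance meets in about 1 of 20 groups. Of these, 6 were in G9577, the line with high mesenchymal and low neuroendocrine marker levels. The change in G9577 was lower than in the other lines for Rpl23 (0.51, next line 1.29), Rpl10a (0.084, next line 1.08), Rps28 (0.0085, next line 1.02), Rpl22 (0.55, next line 1.11) and Rps9 (0.50, next line 0.91). It was higher than in the other lines for Rpl34 (1.69, next line 1.17). In G4314 the change was higher than in the other lines for Rpl3 (2.21, next line 1.58) and Rpsa (2.16, next line 1.41). Each line value compares 1 library with 1 library and has no replicate.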

How the results depend on the processing

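Of the 79 tested members, 0 fell in any of the 13 alternatives run, and 29 kept their direction and their side of the threshold in all of those that tested them. Without the replicate block, which ignores that lines pair the libraries, 24 members rose (12 large and 12 small subunit genes) and 274 genes were called in all, against 72 (41 and 31) and 3973 with it. Under DESeq2, limma-voom, RLE factors, library size alone and TMM factors set without the ribosomal protein genes, 71 members rose, with Rps29 the gene lost each time. Without the filter on low counts 67 of 82 rose, and with a minimum count of 50, 65 of 68. With 1 line left out at a time, 55 (without G4314) to 70 (without G9577) members rose, 30 to 41 large and 25 to 29 small subunit genes, and all genes called ran from 1729 (without G9351) to 4493 (without G9577); 55 members were called in every such fit. The all-gene median log2 change ran from -0.24 to -0.02 over the alternatives. Of the members with under 25% of windows shared, an alternative chosen after seeing the data, all 9 tested rose. The paralog ratios kept their sign with each line left out, at -0.91 to -0.58 for Rpl22l1 to Rpl22, 1.06 to 1.54 for Rps27l to Rps27 and -0.32 to -0.11 for Rpl7l1 to Rpl7. Rps27, Rpl5 and Rps29 were among the members with few countable reads, and the part of depth in their results was not tested.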
